A study of Rattus norvegicus with 23 samples.

Results

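The genes described here encode the Rab GTPases of vesicle traffic and the proteins that switch them on, switch them off, anchor them or act for them, in the hippocampal field CA3 of young and aged rats. Members were all probe sets of the array whose single gene symbol in the platform annotation begins with Rab and a number, with Tbc1d and a number, or with Rabgap, Rabgef, Rabif, Rabep, Rabac or Rabggt. This gave 160 of the 31042 probe sets that are not array controls, and they stood for 101 of the 14217 genes named by a probe set with 1 gene. No Rabif probe set was among them, and 3 probe sets that name both Rab1a and Rab1b fell outside the rule. Of the 160, 112 probe sets of 78 genes reached a log2 value of 4 on 6 or more arrays and were tested. The rule used gene symbols and no measured value.

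RNA came from CA3 that had been microdissected from male Long-Evans rats, with 1 array per animal. Young rats were 6 months old (n = 9). The aged rats were 24 to 26 months old and were divided by their learning index in the Morris water maze, a test of spatial memory in which a submerged platform has to be found, into aged unimpaired animals scoring within the young range (n = 6) and aged impaired animals scoring worse (n = 8). No group received a treatment, all rats were housed singly, and all were killed 2 weeks after behavioural testing. Values are log2 expression values on the GCRMA scale, on which a difference of 1 is a doubling, and group values are given as the lowest, the median and the highest animal. A piece of CA3 tissue holds neurons, glia and vessel cells, so fewer cells of a type and less RNA per cell cannot be told apart.

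A Rab protein is a small GTPase that works as a switch on the membrane of an organelle or vesicle. An exchange factor (GEF) loads it with GTP, the active protein then recruits effectors such as tethers and motors, and a GTPase-activating protein (GAP), usually with a TBC domain, ends the cycle. Rab3 and Rab27 serve secretory vesicles, Rab5, Rab4 and Rab11 early and recycling endosomes, Rab7 late endosomes, and Rab1, Rab2 and Rab6 the endoplasmic reticulum and Golgi apparatus. All Rabs need a geranylgeranyl anchor, which a dedicated transferase adds. In neurons these routes supply synaptic vesicles, return receptors to the synaptic membrane and carry material along the axon.

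The promoters of 5 genes whose levels changed in aged impaired animals are printed first, since they carry the largest fall, 3 falls among the Rab GTPases themselves, and the single rise. They are RefSeq sequences on GRCr8, running from 250 bases before the annotated start to 50 after it, in the direction of the gene. Capitals mark GC boxes, searched as GGGCGG on both strands (CCGCCC where it lies on the other strand). The Rab3ip promoter lay at chr7:54446951-54447250 on the minus strand, that of Rab15 at chr6:101257034-101257333 on the minus strand, that of Rab4a at chr19:68692831-68693130 on the plus strand, that of Rab6b at chr8:112573973-112574272 on the plus strand and that of Rab13 at chr2:177972720-177973019 on the plus strand.
Rab3ip: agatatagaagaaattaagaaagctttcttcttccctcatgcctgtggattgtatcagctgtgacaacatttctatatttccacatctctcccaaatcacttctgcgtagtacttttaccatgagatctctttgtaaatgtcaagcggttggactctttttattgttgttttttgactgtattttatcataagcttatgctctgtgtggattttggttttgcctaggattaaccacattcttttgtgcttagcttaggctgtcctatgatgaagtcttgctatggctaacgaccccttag
Rab15: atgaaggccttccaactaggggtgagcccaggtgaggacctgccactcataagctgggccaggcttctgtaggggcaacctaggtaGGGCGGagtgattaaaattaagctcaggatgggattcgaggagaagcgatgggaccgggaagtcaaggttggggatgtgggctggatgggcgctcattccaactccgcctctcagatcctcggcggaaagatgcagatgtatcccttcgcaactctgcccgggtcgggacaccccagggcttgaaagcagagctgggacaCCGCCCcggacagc
Rab4a: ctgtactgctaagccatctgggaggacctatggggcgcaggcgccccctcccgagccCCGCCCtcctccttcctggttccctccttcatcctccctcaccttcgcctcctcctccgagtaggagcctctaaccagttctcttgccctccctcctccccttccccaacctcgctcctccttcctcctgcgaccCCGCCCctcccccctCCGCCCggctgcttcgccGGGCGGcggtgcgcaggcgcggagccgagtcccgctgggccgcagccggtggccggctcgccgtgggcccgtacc
Rab6b: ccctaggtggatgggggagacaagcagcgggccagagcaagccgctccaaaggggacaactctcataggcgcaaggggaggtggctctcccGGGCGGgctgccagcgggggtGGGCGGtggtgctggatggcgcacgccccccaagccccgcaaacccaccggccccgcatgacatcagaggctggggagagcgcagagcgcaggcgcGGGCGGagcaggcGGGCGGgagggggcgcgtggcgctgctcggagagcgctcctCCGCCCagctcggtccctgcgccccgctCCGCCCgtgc
Rab13: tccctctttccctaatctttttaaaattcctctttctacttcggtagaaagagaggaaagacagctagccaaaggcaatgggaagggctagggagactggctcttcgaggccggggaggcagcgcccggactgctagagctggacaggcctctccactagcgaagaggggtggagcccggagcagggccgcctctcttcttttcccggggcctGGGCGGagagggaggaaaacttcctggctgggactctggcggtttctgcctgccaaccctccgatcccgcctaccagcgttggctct
The Rab3ip window held 0 GC boxes, 3 CpG dinucleotides and 37.7% G or C, whereas the Rab6b window held 6 GC boxes, 30 CpG dinucleotides and 74.7% G or C. Rab4a had 4 GC boxes, Rab15 had 2 and Rab13 had 1. Each window follows the single start of the RefSeq table, and whether that is the start mainly used in CA3 was not tested, which bears most on the Rab3ip window with its few CpG dinucleotides. Over 88 member promoters of 82 genes, 71.6% held a GC box, against 33.1% of all 33469 promoters of that length. Those 33469 were not limited to genes named on the array, as the member promoters were, so the sets compared are unlike. A TATA box (TATAAA) stood in 4.5% of member promoters and 14.2% of all, and a CCAAT box (CCAAT) in 30.7% and 37.5%, both counted on either strand. The median number of CpG dinucleotides was 21.5 in member promoters and 7 in all. These letters describe the windows, and no binding or methylation was measured.

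In aged impaired against young animals, 9 member probe sets of 8 genes were lower and 1 was higher. The genes lower were the exchange factor gene Rab3ip (both probe sets), the Rabs Rab15, Rab4a and Rab6b, the GAP genes Tbc1d13 and Tbc1d16, the Rab5 effector gene Rabep1, and Rab5if. The gene higher was Rab13. Their log2 differences ran from -0.39 to -0.14 among the falls and reached 0.50 for Rab13, the only tested member with a difference of 0.5 or more in size. Calls were made at an adjusted p of at most 0.05 in limma, with Benjamini-Hochberg adjustment over all 14647 tested probe sets. The 10 calls were 8.93% of the 112 tested members, beside 9.76% of all tested probe sets. By direction, 8.04% of the members were lower, beside 5.88% of all, and 0.893% were higher, beside 3.88% of all. The members' share of calls was thus near the background. The median difference was -0.03 over the members and -0.02 over all tested probe sets, and 70 of the 112 members lay below 0.

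**Figure D1:**
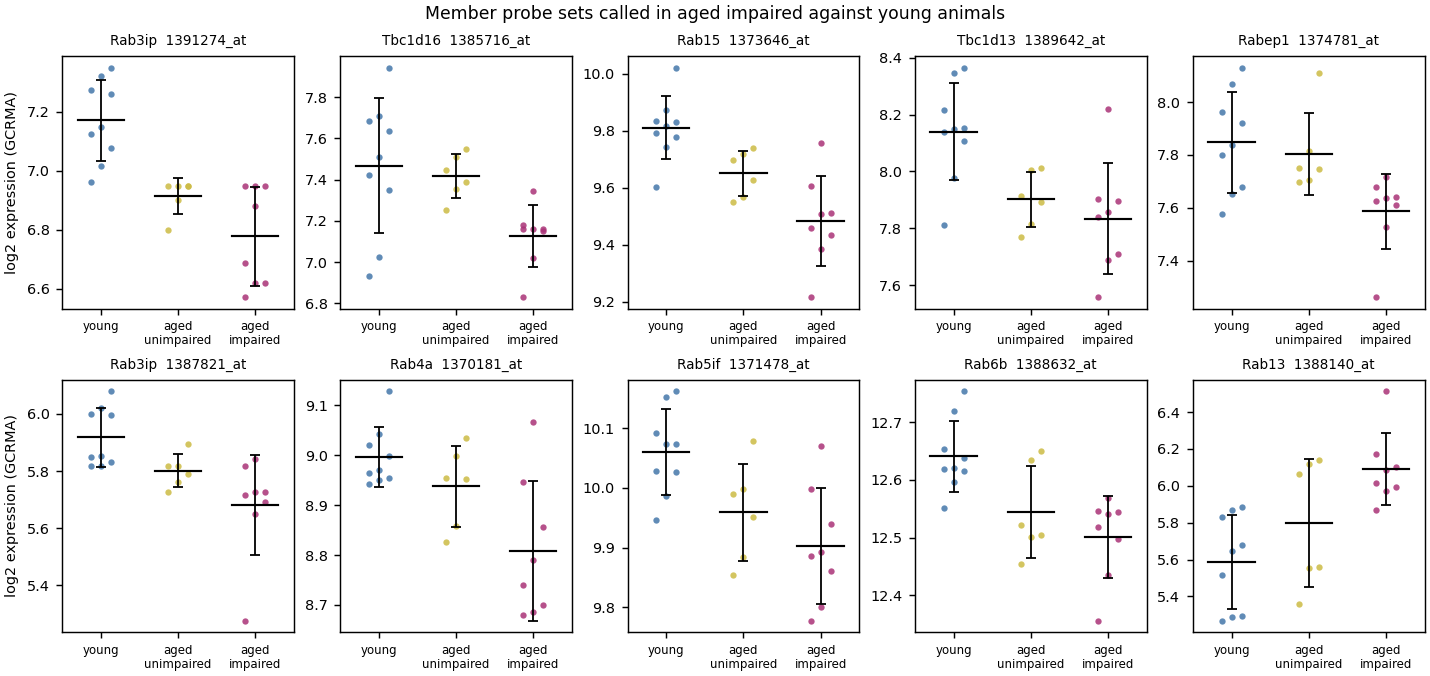
Each panel shows 1 member probe set called in aged impaired against young animals. Points are animals (young n = 9, aged unimpaired n = 6, aged impaired n = 8), the vertical axis is log2 expression on the GCRMA scale and does not start at 0, and bars are the mean ± SD. In all 9 panels of falls the aged impaired mean is the lowest of the 3, and in the Rab13 panel 7 of 8 aged impaired animals lie above every young animal.

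In aged unimpaired against young animals, 2 members were called. They were Rabggta, which encodes the alpha subunit of the transferase that adds the geranylgeranyl anchor, and was lower, and Rab21, a Rab of early endosomes, which was higher. These were 1.79% of the tested members, beside 2.06% of all probe sets (1.37% higher and 0.696% lower). With both aged groups set against young, 9 members were called, which was 8.04%, beside 6.9% of all. Of these, 7 were lower (beside 3.56% of all) and 2 were higher (beside 3.34%). The 7 were both Rab3ip probe sets, Rab15, Tbc1d13, Rab5if, Rab6b and Rabggta, and the 2 were Rab13 and Rab21. Several of these joint calls lay close to the threshold. With 1 array left out at a time, the dimmer Rab3ip probe set was lost in 17 of 23 fits (adjusted p from 0.0509 to 0.0872; kept without aged impaired 1, 4 and 8, aged unimpaired 7, and young 1 and 7). Rab13 was lost in 15 (0.0517 to 0.0902; kept without aged impaired 1 and 5, aged unimpaired 1, 4 and 8, and young 1, 5 and 6). Rab5if was lost in 13 (0.0508 to 0.0766; kept without aged impaired 1, 2, 6 and 8, aged unimpaired 1, 6 and 7, and young 4, 5 and 6). Rab21 was lost in 5 (without aged unimpaired 6 and 8, and young 1, 3 and 9; 0.0511 to 0.0728), and Rab6b in 4 (without aged unimpaired 4, and young 1, 3 and 7; 0.0507 to 0.0608). Rab13 was also lost under 3 of 9 other alternatives and the dimmer Rab3ip probe set under 4 of 8. The comparisons with young share the young animals. In aged impaired against aged unimpaired animals, 0 members were called, beside 0.778% of all probe sets, and 18 members (16.1%) had an unadjusted limma p under 0.05, beside 15.2% of all.

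**Figure D2:**
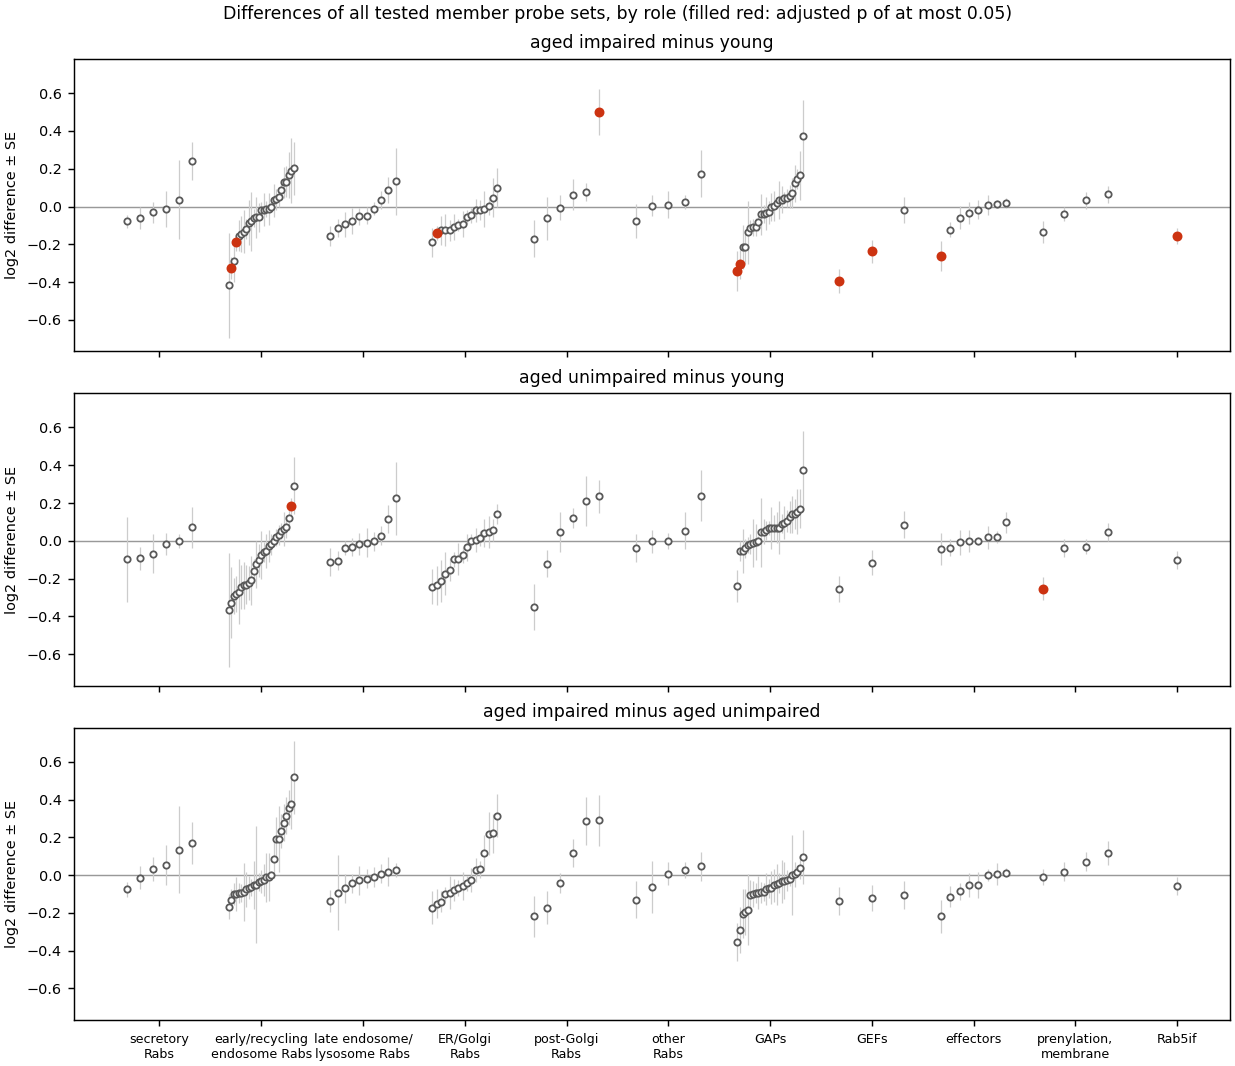
Each point is 1 of the 112 tested member probe sets, placed by role, with its log2 difference ± SE from the limma fit in each of the 3 pairwise comparisons. Filled red points have an adjusted p of at most 0.05, of which there are 10, 2 and 0 from top to bottom.

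Secretory Rabs had no call in any comparison. Of all probe sets, 9.76% were called in aged impaired and 2.06% in aged unimpaired against young animals. The shares were 0.778% between the aged groups and 6.9% for both aged groups against young. At such shares a list of 6 probe sets may hold no call without differing from the background. Of 8 such genes, 5 were tested, with 6 probe sets, and their differences between aged impaired and young animals ran from -0.08 to 0.24. Rab3a, the most abundant Rab of synaptic vesicles, ran from 12.96 to 13.17 in young animals (median 13.05), from 12.97 to 13.12 in aged unimpaired animals (median 13.08) and from 12.83 to 13.05 in aged impaired animals (median 13.01) at its brighter probe set. The 3 groups overlapped, with a difference of -0.08 ± 0.03 (SE) between aged impaired and young animals (adjusted p = 0.154), and a 2nd Rab3a probe set gave -0.06 ± 0.06. Rab3b, a Rab of secretory vesicles, ran from 6.81 to 7.27 in young, from 7.02 to 7.12 in aged unimpaired and from 6.90 to 7.86 in aged impaired animals. Its groups also overlapped (0.24 ± 0.10 SE, adjusted p = 0.121). Rab3d (-0.03 ± 0.05), the vesicle Rab26 (-0.01 ± 0.10) and Rab27b (0.04 ± 0.21) lay nearer to 0. Rab3c and Rab27a were not tested, since at most 1 of the 23 arrays reached a log2 value of 4 at any of their probe sets.

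Among Rabs of early and recycling endosomes, Rab15 and Rab4a fell in aged impaired animals and Rab21 rose in aged unimpaired animals, out of 27 tested probe sets of 14 genes. These were 7.41% of the 27 beside 9.76% of all probe sets, and 3.7% beside 2.06%. Rab15, which slows the return of receptors from early endosomes, ran from 9.60 to 10.02 in young animals (median 9.82), from 9.55 to 9.74 in aged unimpaired animals (median 9.66) and from 9.22 to 9.76 in aged impaired animals (median 9.48). Of the 8 aged impaired animals, 6 lay below every young animal. The difference from young was -0.33 ± 0.06 (SE; 1.25-fold lower, adjusted p = 0.00197). In aged unimpaired animals it was -0.16 ± 0.06 (adjusted p = 0.202). The gene's other probe sets gave -0.14 ± 0.09 and -0.06 ± 0.11 in aged impaired against young animals, in the same direction but not called.

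Rab4a, which drives fast recycling to the cell surface, ran from 8.94 to 9.13 in young (median 8.97), from 8.83 to 9.03 in aged unimpaired (median 8.95) and from 8.68 to 9.07 in aged impaired animals (median 8.76). Again 6 of 8 aged impaired animals lay below every young animal, while 1 lay within the upper part of the young range. The difference was -0.19 ± 0.05 (SE, adjusted p = 0.0189) in aged impaired and -0.06 ± 0.05 (adjusted p = 0.612) in aged unimpaired animals. Its paralog Rab4b gave -0.06 ± 0.08 in aged impaired animals. Rab21, which accompanies integrins into early endosomes, ran from 8.66 to 8.81 in young (median 8.80), from 8.82 to 9.10 in aged unimpaired (median 8.94) and from 8.73 to 8.95 in aged impaired animals (median 8.86). All 6 aged unimpaired animals lay above every young animal (0.18 ± 0.05 SE, adjusted p = 0.0396), as did 4 of 8 aged impaired animals (0.09 ± 0.04 SE, adjusted p = 0.19). This probe set was listed at the same value of 8.81 on 5 arrays, those of young 4, 5, 6 and 8 and aged impaired 7. That value is the top of the young range, and the lowest aged unimpaired animal lay close above it at 8.82. The Rab21 call was lost without any 1 of 9 arrays (aged unimpaired 2, 6, 7 and 8, and young 1, 2, 3, 4 and 9), with adjusted p from 0.051 to 0.106.

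The Rab5 and Rab11 genes, the central Rabs of early and of recycling endosomes, showed no call. At their brightest probe sets the differences between aged impaired and young animals were 0.05 ± 0.05 (SE) for Rab5a, -0.02 ± 0.04 for Rab5b, -0.08 ± 0.16 for Rab5c, -0.12 ± 0.05 for Rab11a and -0.01 ± 0.04 for Rab11b, with adjusted p from 0.146 to 0.875. Rab5c also had a spread among the young animals (0.35 SD) that exceeded any of these differences. Rab25, an epithelial relative of Rab11, was listed at 4.52 on all 23 arrays and carries no measurement of a difference.

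Rabs of late endosomes and lysosomes had no call among 10 tested probe sets of 8 genes. Of all probe sets, 9.76% were called in aged impaired against young animals, and in so short a list 0 calls lie near that share. Rab7a, which governs late endosomes, ran from 11.01 to 11.25 in young, 11.03 to 11.23 in aged unimpaired and 10.97 to 11.28 in aged impaired animals at its brighter probe set. These ranges nearly coincided (-0.05 ± 0.05 SE in aged impaired against young animals). Nearest to a call was Rab9a, which returns receptors from late endosomes to the Golgi apparatus (-0.16 ± 0.05 SE, adjusted p = 0.0596). Rab7b, Rab32 and Rab38, late endosomal or lysosome-related Rabs, were below a log2 value of 4 on all arrays.

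Of the Rabs of the endoplasmic reticulum and Golgi apparatus, 1 of 16 tested probe sets was called in aged impaired against young animals (6.25%, beside 9.76% of all). Rab6b, the neuronal form of the Golgi Rab6, ran from 12.55 to 12.75 in young (median 12.62), from 12.45 to 12.65 in aged unimpaired (median 12.51) and from 12.36 to 12.57 in aged impaired animals (median 12.53). In both aged groups most animals lay below every young animal, 7 of 8 aged impaired and 4 of 6 aged unimpaired. The difference from young was small, at -0.14 ± 0.04 (SE; 1.10-fold lower, adjusted p = 0.0198) in aged impaired animals and -0.10 ± 0.04 (adjusted p = 0.212) in aged unimpaired animals. A 2nd Rab6b probe set gave -0.12 ± 0.06 (adjusted p = 0.158). The ubiquitous form Rab6a lay beside it at -0.10 ± 0.03 (adjusted p = 0.059) at its brighter probe set. Rab1a, of transport from the endoplasmic reticulum to the Golgi apparatus, gave -0.05 ± 0.04, and Rab2a, of the same route, -0.05 ± 0.04.

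Among Rabs of traffic from the Golgi apparatus to the surface, 1 of 6 tested probe sets was called in aged impaired against young animals. It was that of Rab13, which rose (16.7%, beside 9.76% of all probe sets). Rab13, known for delivering proteins to cell junctions, ran from 5.27 to 5.88 in young (median 5.65), from 5.36 to 6.14 in aged unimpaired (median 5.81) and from 5.87 to 6.51 in aged impaired animals (median 6.05). Of the aged impaired animals 7 of 8 lay above every young animal, and the aged unimpaired animals fell into 3 above every young animal and 3 within the young range. The difference was 0.50 ± 0.12 (SE; 1.42-fold higher, adjusted p = 0.0128) in aged impaired animals and 0.21 ± 0.13 (adjusted p = 0.435) in aged unimpaired animals. Between the aged groups it was 0.29 ± 0.14 (adjusted p = 0.311). Without the highest aged impaired animal (replicate 2, at 6.51) the difference was 0.44 and the call stood. Rab8a (0.08 ± 0.05) and Rab10 (0.06 ± 0.08 at its brighter probe set), related Rabs of surface traffic, were not called.

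Rab3ip, also known as Rabin8, encodes the exchange factor that activates Rab8, and both of its probe sets fell in aged impaired animals. They were 2 of the 3 tested probe sets of exchange factor genes (66.7%, beside 9.76% of all), and both are of 1 gene. The brighter ran from 6.96 to 7.35 in young (median 7.15), from 6.80 to 6.95 in aged unimpaired (median 6.95) and from 6.57 to 6.95 in aged impaired animals (median 6.78). All 8 aged impaired and all 6 aged unimpaired animals lay below every young animal. The difference was -0.39 ± 0.06 (SE; 1.31-fold lower, adjusted p = 0.000901) in aged impaired and -0.26 ± 0.07 (adjusted p = 0.0583) in aged unimpaired animals. On 7 arrays, all of aged animals, this probe set was listed at the same value of 6.95, so aged animals at that value have no order. The dimmer probe set ran from 5.82 to 6.08 in young, from 5.73 to 5.90 in aged unimpaired and from 5.28 to 5.84 in aged impaired animals. It fell by 0.24 ± 0.06 (SE) on the log2 scale in aged impaired animals (adjusted p = 0.0175), with 6 of 8 below every young animal. The other tested exchange factor gene, Rabgef1, which acts on Rab5, gave -0.02 ± 0.07.

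GAP genes had 2 calls among 26 tested probe sets (7.69%, beside 9.76% of all), both falls in aged impaired animals. Genes were counted here by name, with all Tbc1d genes among them, and whether each protein acts as a GAP was not tested. Tbc1d13, a GAP of Rab35, ran from 7.81 to 8.37 in young (median 8.15), from 7.77 to 8.01 in aged unimpaired (median 7.90) and from 7.56 to 8.22 in aged impaired animals (median 7.85). The groups overlapped, with 3 of 8 aged impaired animals below every young animal (-0.31 ± 0.08 SE, adjusted p = 0.0175). In aged unimpaired animals the difference was -0.24 ± 0.09 (adjusted p = 0.148). Rab35 itself gave -0.01 ± 0.08 in aged impaired animals. Tbc1d16, a GAP of Rab4, ran from 6.93 to 7.94 in young (median 7.51), from 7.25 to 7.55 in aged unimpaired (median 7.42) and from 6.83 to 7.35 in aged impaired animals (median 7.16). Its fall of -0.34 ± 0.11 (adjusted p = 0.0464) rested on overlapping groups, with 1 of 8 aged impaired animals below every young animal. The call was lost without any 1 of 20 of the 23 arrays (all but aged impaired 1 and young 1 and 5), with differences from -0.36 to -0.28 and adjusted p from 0.0506 to 0.0882.

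Other GAP genes were not called. Rab3gap1, the catalytic subunit of the Rab3 GAP, ran from 8.95 to 9.17 in young, from 8.98 to 9.20 in aged unimpaired and from 8.13 to 9.40 in aged impaired animals, whose range enclosed both others (-0.22 ± 0.12 SE, adjusted p = 0.245). Its partner Rab3gap2 gave -0.03 ± 0.06. Tbc1d8 had the largest difference among the GAP genes, 0.37 ± 0.19 in aged impaired and 0.37 ± 0.21 in aged unimpaired animals, but its young animals alone ran from 5.64 to 6.99. Tbc1d15, a GAP of Rab7, gave 0.15 ± 0.05 (adjusted p = 0.087) and Tbc1d9 -0.11 ± 0.04 (adjusted p = 0.0832).

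Effector, anchoring and other member genes had 1 fall each, in Rabep1, Rab5if and Rabggta. Rabep1 fell in aged impaired animals, as 1 of 8 tested effector probe sets, beside 9.76% of all probe sets. Rab5if, placed in no role list, also fell there at its 1 tested probe set. Rabggta fell in aged unimpaired animals, as 1 of 4 tested probe sets of anchoring and membrane genes, beside 2.06% of all. Lists this short cannot be told from these shares. Rabep1, or rabaptin-5, links Rab5 to endosome fusion. Its dimmest probe set ran from 7.58 to 8.13 in young (median 7.84), from 7.70 to 8.11 in aged unimpaired (median 7.75) and from 7.26 to 7.72 in aged impaired animals (median 7.63). Aged impaired and young animals overlapped, with 2 of 8 below every young animal (-0.26 ± 0.08 SE, adjusted p = 0.0379). The gene's 2 brighter probe sets gave 0.02 ± 0.03 and -0.03 ± 0.06. The call was lost without any 1 of 10 arrays (aged impaired 3, 4, 5, 6 and 8, and young 1, 2, 6, 7 and 9), with differences from -0.27 to -0.21 and adjusted p from 0.0506 to 0.0711.

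Rab5if, which is named for an interaction with Rab5, ran from 9.95 to 10.16 in young (median 10.07), from 9.85 to 10.08 in aged unimpaired (median 9.97) and from 9.78 to 10.07 in aged impaired animals (median 9.89). It fell in aged impaired animals by 0.16 ± 0.04 (SE) on the log2 scale (adjusted p = 0.023), with 6 of 8 below every young animal. Rabggta at 1 probe set ran from 6.10 to 6.44 in young (median 6.28), from 5.82 to 6.15 in aged unimpaired (median 6.05) and from 5.92 to 6.34 in aged impaired animals (median 6.14). It fell in aged unimpaired animals (-0.25 ± 0.06 SE, adjusted p = 0.033), with 4 of 6 below every young animal, and gave -0.13 ± 0.06 in aged impaired animals (adjusted p = 0.135). That call was lost without any 1 of 8 arrays (aged unimpaired 2, 4 and 6, and young 1, 2, 4, 6 and 7), with adjusted p from 0.0506 to 0.101. A 2nd Rabggta probe set gave -0.03 ± 0.04 and was listed at 5.97 on 13 of the 23 arrays. The beta subunit gene Rabggtb (0.05 ± 0.05) and the membrane receptor gene Rabac1 (-0.04 ± 0.05) were not called in aged unimpaired animals.

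Probe sets of 1 gene did not always move together. Of the 26 genes with several tested probe sets, 14 had the same sign at all of them in aged impaired against young animals, 14 in aged unimpaired against young and 13 between the aged groups. Many of these differences were near 0 and not called, such as -0.05 and 0.03 for Rab7a in aged impaired animals. A differing sign says little there, and the share over all genes of the array is not given here. Both Rab3ip probe sets and both Rab6b probe sets lay below 0 in each aged group. Rab14, which works between endosomes and the Golgi apparatus, gave differences from -0.42 to 0.20 over its 4 probe sets in aged impaired against young animals. At the probe set with -0.42, aged impaired 1, 2 and 7, aged unimpaired 4 and 8, and young 7 and 8 lay from 5.34 to 5.90. All other animals lay from 6.65 to 7.27 there. At the probe set with 0.20 the same animals lay from 11.77 to 12.14, and the others from 11.17 to 11.80. These group differences thus depend in part on how many such animals a group holds, and the cause was not tested. Rab1b, a close relative of Rab1a, gave -0.24 to -0.17 over 4 probe sets in aged unimpaired against young animals and -0.12 to 0.10 in aged impaired animals. The 4 probe sets of a gene are measured on the same RNA and are not replicates. Whether some respond to a different transcript form or to a relative of the gene was not tested.

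**Figure D3:**
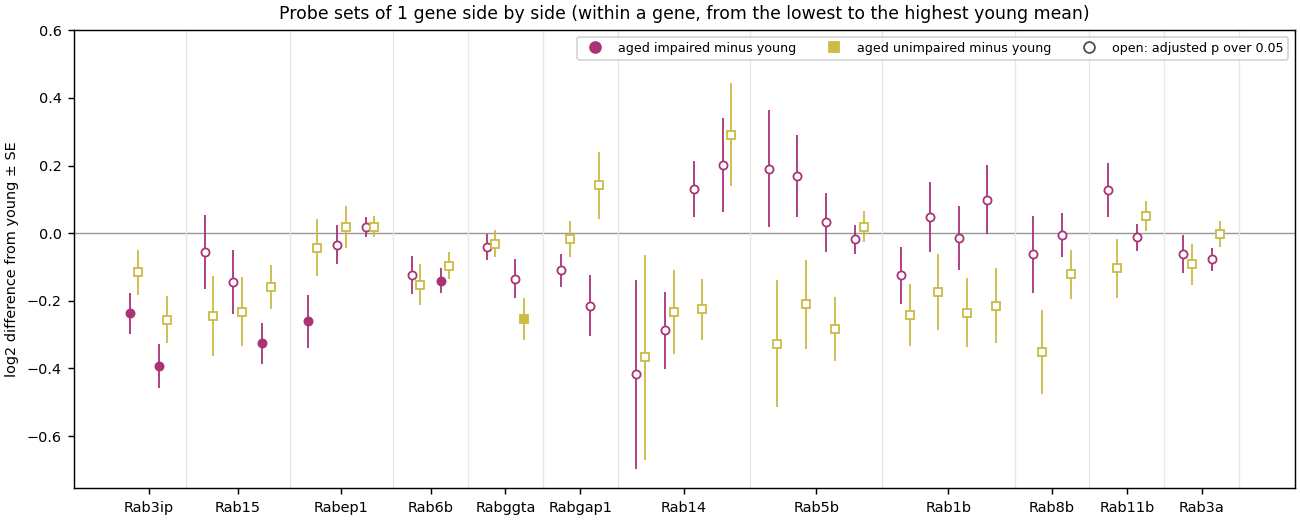
Each position is 1 probe set, grouped by gene and ordered within a gene by its young mean, with the log2 difference from young ± SE for aged impaired (circles) and aged unimpaired animals (squares). Filled symbols have an adjusted p of at most 0.05. The Rab3ip and Rab6b probe sets lie below 0 in both aged groups, while those of Rab14 lie on both sides of 0.

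Between aged impaired and aged unimpaired animals the nearest to a call were Rab14, Rabgap1 and Rab5b. Rab14 at 1 probe set ran from 8.53 to 8.85 in young (median 8.72), from 8.15 to 8.75 in aged unimpaired (median 8.51) and from 8.55 to 9.12 in aged impaired animals (median 8.86). It was 0.36 ± 0.09 (SE) higher in aged impaired than in aged unimpaired animals (adjusted p = 0.0657), with 5 of 8 above every aged unimpaired animal. The other Rab14 probe sets gave -0.05 ± 0.13, -0.05 ± 0.31 and -0.09 ± 0.16. Rabgap1, a GAP with a TBC domain, ran from 8.72 to 9.52 in aged unimpaired (median 9.09) and from 8.51 to 8.87 in aged impaired animals (median 8.74), a difference of -0.36 ± 0.10 (adjusted p = 0.0837). Its 2nd probe set gave -0.09 ± 0.05 (adjusted p = 0.451).

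Rab5b gave 0.52 ± 0.19, 0.38 ± 0.14 and 0.32 ± 0.10 at 3 probe sets, of which the last had an adjusted p of 0.11, and -0.04 ± 0.05 at its brightest. Rab1b was higher in aged impaired animals at all 4 probe sets, by 0.12 to 0.31, with adjusted p from 0.178 to 0.604. The aged unimpaired mean lay below the young mean at each of these Rab1b probe sets and at the 3 dimmer Rab5b probe sets, none of them called. Without aged unimpaired replicate 7, the Rab14, Rabgap1 and 1 of the Rab5b probe sets were called (3 members in all, with 3.05% of all probe sets called). For 98 of the 112 tested members, the 95% interval of the difference between the aged groups lay within 0.5 of 0. The share over all tested probe sets is not given here. The log2 gap between 2 control probe sets of the arrays was 2.28 ± 0.09 (SD, n = 6) in aged unimpaired, 2.14 ± 0.09 (SD, n = 8) in aged impaired and 2.22 ± 0.10 (SD, n = 9) in young animals, with overlapping ranges. Some control names do not match their values in these data, so what this gap measures is uncertain. With this gap as a covariate, 0 probe sets of the whole array were called between the aged groups.

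**Figure D4:**
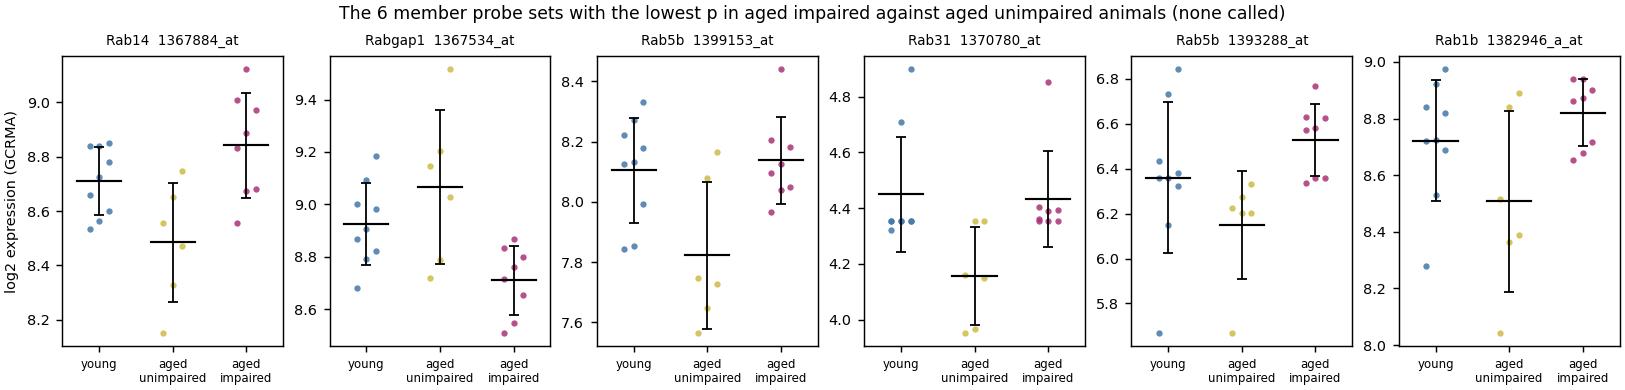
The 6 member probe sets with the lowest p between the aged groups, with 1 point per animal (young n = 9, aged unimpaired n = 6, aged impaired n = 8), log2 expression on a vertical axis that does not start at 0, and the mean ± SD. None was called. Except at Rabgap1, the aged unimpaired mean is the lowest of the 3 groups.

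Genes that work with Rabs but carry other names were taken from a list of 82, of which 54 were tested with 79 probe sets. In aged impaired against young animals 3 probe sets were higher and 3 lower, 7.59% of those tested beside 9.76% of all. The rises were those of Rin2, an exchange factor of Rab5 (0.48 ± 0.09 SE, adjusted p = 0.00283), Rilpl1, which binds Rab8 and Rab10 (0.25 ± 0.05, adjusted p = 0.00681), and Sytl2, an effector of Rab27 (0.26 ± 0.07, adjusted p = 0.0176). The falls were those of Exoc6, a subunit of the exocyst tether (-0.41 ± 0.08, adjusted p = 0.00425), Bicd2, which couples Rab6 vesicles to dynein (-0.20 ± 0.04, adjusted p = 0.00499), and Sgsm1, a TBC domain protein (-0.18 ± 0.05, adjusted p = 0.0196). In aged unimpaired against young animals 2 probe sets (2.53%, beside 2.06% of all) were lower, of Evi5l, a GAP (-0.24 ± 0.05, adjusted p = 0.0222), and Sbf1, a DENN domain protein (-0.39 ± 0.10, adjusted p = 0.0487). Between the aged groups 3 (3.8%, beside 0.778% of all) were higher in aged impaired animals, 1 of the Rab-like gene Rabl6 (0.56 ± 0.12, adjusted p = 0.0393) and 2 of Sbf1 (0.93 ± 0.20, adjusted p = 0.0393, and 0.46 ± 0.11, adjusted p = 0.0435). The brightest Sbf1 probe set gave 0.04 ± 0.05 there. All 3 calls were lost with the replicate block, the control gap as covariate, the compared groups alone or no filter. Those of Rabl6 (adjusted p from 0.0502 to 0.111) and of the first Sbf1 probe set (0.0553 to 0.111) were lost without any 1 of 10 arrays (aged impaired 1, 2, 3, 6, 7 and 8, and aged unimpaired 1, 4, 6 and 8). The other Sbf1 probe set was lost without any 1 of 16 arrays (these 10, aged impaired 4, and young 1, 2, 5, 6 and 9; 0.0535 to 0.125), and in aged unimpaired against young animals without any 1 of 21 (all but aged unimpaired 7 and young 7; 0.0502 to 0.139). The Evi5l call was lost without aged unimpaired 4 (0.0645), and also with no filter and with the replicate block. The Sbf1 call in aged unimpaired against young animals was lost with no filter, the replicate block, the control gap as covariate or the compared groups alone. The 6 calls in aged impaired against young animals stood without any 1 array. Of these, that of Sgsm1 was lost with the replicate block, and the others stood under every alternative.

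Levels and spread differed widely between members. The 5 probe sets with the highest young means were both of Rab3a (13.06 and 12.10), Rab6a (12.92), Rab6b (12.64) and Rab2a (12.00). The 5 lowest tested were those of Rab27b (4.69), Rab25 (4.52), Rab31 (4.45), Rabep2 (4.27) and Tbc1d23 (4.20). These means are of different probes and do not rank transcript amounts. The largest spreads among young animals were those of Rab14 (0.53 SD), Rab5b (0.45), Rab9b (0.43), Tbc1d8 (0.40) and Rab5c (0.35), each at 1 probe set, against a median of 0.12 over the tested members. That of Rab14 is at the probe set where young 7 and 8 lay apart from the other young animals, as given above. The median SD was 0.10 in aged unimpaired and 0.15 in aged impaired animals. Of the 48 untested member probe sets, 44 lay below 4 on all arrays, and 23 genes had no tested probe set. They included Rab17, Rab20, Rab37, Rab39a and Tbc1d10c.

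The falls in aged impaired animals were not even across the group. Aged impaired replicate 1 was the highest of the 8 at 8 of the 9 fallen probe sets and at 39 of all 112 tested members. Without it 11 members were called in aged impaired against young animals, and 12.3% of all probe sets. Aged impaired replicate 7 was the lowest at 3 of the 9. Of the 10 calls, 6 (both Rab3ip probe sets, Rab15, Rab5if, Rab6b and Rab13) stood without any 1 array and under all 9 or 10 other alternatives run for each, and those of Rab4a and Tbc1d13 stood without any 1 array.

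All 7 CA3 marker genes on the array were above the filter, and markers of other cells moved with age in the same tissue. Over all tested probe sets, 3.88% were higher and 5.88% lower in aged impaired against young animals. Microglial markers were higher in aged impaired animals for 8 of 10 tested genes (median log2 difference 0.71), and their mean level ran from 6.90 to 7.27 in young, 7.42 to 7.87 in aged unimpaired and 7.47 to 8.21 in aged impaired animals. The microglial Cx3cr1 and Itgam were not tested. Astrocyte markers were higher for 2 of 8 genes, and markers of CA3 neurons were lower for 3 of 7 (median -0.18). Mean CA3 marker levels ran from 10.40 to 10.69 in young, 10.28 to 10.47 in aged unimpaired and 9.99 to 10.55 in aged impaired animals. General neuronal markers were lower for 1 of 6 genes, endothelial markers were called for 0 of 3, and 0 of 5 CA1 markers were called, although their median was 0.44. The microglial count of 8 of 10 lay far above the 3.88% of all probe sets that were higher. The other lists are short, and their counts were not tested against the shares over all probe sets. The part of these cells in the falls of Rab3ip, Rab15, Rab4a and Rab6b and in the rise of Rab13 was not tested. In these marker lists 0 genes, each at its brightest probe set, were called between the aged groups, beside 0.778% of all probe sets.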

How the data were processed

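Expression was read from 1 Affymetrix Rat Genome 230 2.0 array per animal, on total RNA, per the labels' protocols. The deposited values are log2 values made with GCRMA, per the submitters' processing notes, with version and options not given in the sources used here. GCRMA corrects background from probe sequence, normalizes arrays to each other and summarises probes. Among the 112 tested members, 49 held the same value to 3 decimals on 3 or more arrays, dim and bright probe sets among them, and the cause was not tested.

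The table held 31099 probe sets, 57 of them controls. Array medians lay between 3.388 and 3.458, each array correlated with the rest at a mean r between 0.9845 and 0.99, and 0 pairs were identical. Precision is limited by the number of arrays. Probe sets reaching 4 on 6 or more arrays were tested with limma 3.58.1 in R 4.3.3 (1 mean per group over all 23 arrays, moderated two-sided tests, 20 residual and 2.35 prior degrees of freedom), adjusted by Benjamini-Hochberg over 14647 probe sets and called at an adjusted p of at most 0.05. Folds are 2 to the power of the log2 difference. The fit was tested on simulated data. Genes are named by the platform's symbols, all of them current in the GRCr8 gene table.

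Members and lists were chosen with earlier results of these data known. Genes named are called members and their other probe sets, a fixed set of well-known Rabs and regulators, members of extreme level, spread or outlying animals, and called probe sets of the list of partners. Members near a call or with disagreeing probe sets, and untested genes, were added after their values were seen. Replicate numbers were not used as a pairing in the main fit, since the labels do not state that a number is shared between groups. Of 20 same-numbered pairs across groups 2 had a correlation over 0.1 (range -0.139 to 0.132). Alternatives were filters, a floor, centring, quantile normalization, array weights, a replicate block, a control gap as covariate, a mean-variance trend, the compared groups alone, and each array left out.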

Additional observations from a re-analysis of the deposited data

Results flagged for a closer look

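Single animals lay far from the rest of their group, with a gap larger than the 95% limit of Dixon's ratio, in 44 of 336 combinations of group and tested member (13.1%), where chance gives about 1 in 20 for values without repeats. Of these, 32 were at probe sets that hold the same value on 3 or more arrays, where that rate does not apply, and 12 were at the other 63 probe sets (6.35% of 189 combinations). Young replicate 7 did so 8 times, lowest of its group for Rab11b at 9.06, Rab15 at 6.19, Rab1b at 7.60, Rab3a at 11.85, Rab5b at 3.75, Rab9b at 5.33 and Tbc1d2b at 5.58, and highest for Rab33a at 9.21 (log2 values). Aged impaired replicate 2 did so 6 times, lowest of its group for Rabggta at 5.73 and Tbc1d8b at 6.36, and highest for Rab13 at 6.51, Rab31 at 4.85, Rabep2 at 4.37 and Tbc1d1 at 7.65 (log2 values). Aged unimpaired replicate 6 did so 5 times, lowest of its group for Rab15 at 6.47, Rab3ip at 6.80 and Rab5b at 5.67, and highest for Rab40b at 5.46 and Rabep1 at 8.45 (log2 values). A wide gap was that of Tbc1d1, a GAP of insulin-regulated glucose transport, at 7.65 in aged impaired replicate 2 against 6.42 to 6.59 in the other 7. The same animal held the highest Rab13 value, 6.51 against 5.87 to 6.17. Among the other aged impaired animals the lowest values that stood apart were Rab3ip at 5.28 (replicate 8), Rabep1 at 7.26 (replicate 6), Tbc1d23 at 8.43 (replicate 7) and Tbc1d9b at 8.41 (replicate 6). Among the other aged impaired animals the highest values that stood apart were Rab35 at 7.10 (replicate 6), Tbc1d2b at 6.75 (replicate 1) and Tbc1d9b at 4.96 (replicate 7). Among the other aged unimpaired animals the lowest values that stood apart were Rab22a at 5.68 (replicate 4). Among the other aged unimpaired animals the highest values that stood apart were Rab11fip3 at 9.49 (replicate 2), Rab35 at 6.91 (replicate 2), Rab3gap1 at 9.20 (replicate 7), Rabep1 at 8.11 (replicate 1), Rabep2 at 4.28 (replicate 7), Tbc1d23 at 4.67 (replicate 8), Tbc1d9b at 8.94 (replicate 8) and Tbc1d9b at 4.81 (replicate 1). Among the other young animals the lowest values that stood apart were Rab33b at 8.17 (replicate 1), Rab35 at 6.26 (replicate 3), Rab40c at 7.52 (replicate 6), Rab5a at 7.88 (replicate 8) and Tbc1d8b at 6.18 (replicate 9). Among the other young animals the highest values that stood apart were Rabep2 at 4.28 (replicate 8), Tbc1d17 at 7.22 (replicate 3), Tbc1d23 at 4.47 (replicate 3) and Tbc1d9b at 4.82 (replicate 8). Of these, the Rab3ip value of aged impaired replicate 8 lay beside 5.65 to 5.84 in its group, and without that animal the fall was -0.18 on the log2 scale and still called. Among the probe sets with repeats, Rabep2 held 1 value on 19 arrays, the dimmer Tbc1d9b on 16, Rabggta on 13, Tbc1d17 on 11, and Rab31, Rab40b, Tbc1d8b and the brighter Tbc1d23 on 10 each, so an animal off that value stands apart easily there.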

How the results depend on the processing

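Of the members called in any comparison, 0 changed direction under any alternative, and the 10 calls in aged impaired against young animals numbered 8 to 11 with 1 array left out. With the replicate block 6 remained past the threshold there, those of Rab4a (adjusted p = 0.0578), Tbc1d13 (0.0505), Rabep1 (0.0631) and Tbc1d16 (0.101) being lost. Rabep1 was also lost with no filter (0.0909), the control gap as covariate (0.111) and the compared groups alone (0.053), and Tbc1d16 with those (0.115, 0.0983 and 0.0859) and with arrays centred on their median (0.0506). In aged unimpaired against young animals the 2 calls became 0 with no filter, with the replicate block and with the control gap as covariate, and 5 with array weights, and ran from 0 to 3 with 1 array left out. Between the aged groups the count of 0 became 1 (Rab14) with arrays centred on their median and 1 (Rab14) with quantile normalization, and ran from 0 to 3 with 1 array left out. The whole array then went from 114 calls to 0 with the replicate block, the control gap covariate or the compared groups alone, 2 with no filter, 165 and 184 with centring and quantile normalization, and 222 with array weights. For both aged groups against young the 9 calls became 3 with no filter and 5 with the replicate block, and ran from 4 (without young replicate 3) to 12 (without aged impaired replicate 1). With no filter more probe sets are tested (31042), which raises adjusted p. The cause of the other changes was not tested. Of 20 same-numbered pairs 2 had a correlation over 0.1, so arrays of 1 number were not alike over the whole array. Such correlations cannot show whether a number marks something shared that touches only some genes, and the labels do not state it. Dim probe sets near the floor of the scale limit what can be seen of 23 member genes.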
